A study of Homo sapiens with 4 samples.

Results

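Interferon response genes are the 47 genes of a common interferon signature, taken by symbol from a fixed list and looked up among the 19689 protein-coding genes of GENCODE on the human genome build hg38. All 47 were found, DDX58 under its newer symbol RIGI. The rule for this list uses no accessibility value. For each gene, a promoter (2000 bp on either side of any transcription start site, TSS) and a locus (the gene with 20000 bp on either side) were scored for accessible intervals. The assay was ATAC-seq, which uses the Tn5 transposase to insert adapters into open chromatin, on 2 human lines of prostate cancer. The C4-2B line is an adenocarcinoma that responds to androgen and was grown in RPMI medium with serum. C4-2BER was derived from C4-2B by keeping the cells in enzalutamide, an androgen receptor blocker, and is described by the study as neuroendocrine-like. No interferon treatment is named for either line. Each line had 2 libraries, which the authors merged before peaks were called, so 1 peak list stands for each line. No difference between the lines could therefore be checked against replicates, and each one below describes this resistant line and its parent, not resistance in general.

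Type I and type III interferons bind receptors that act through the kinases JAK1 and TYK2, which phosphorylate STAT proteins. STAT2 and IRF9 are parts of ISGF3, which binds the interferon-stimulated response element (ISRE) and switches on antiviral genes. Interferon gamma acts mainly through a different element, the gamma-activated sequence (GAS). Many tumour lines hold a basal level of these genes without added interferon, and an open promoter does not by itself show transcription.

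The lists held 149676 peaks for C4-2B and 118728 for C4-2BER. The reads under each peak summit were recovered from the fold enrichment and the p-value, and the recovered depth was 1.20 times higher in C4-2B. Ratios below were scaled by that depth, and their 95% intervals cover counting error only. As a check of the labels, a promoter peak was present in both lists for 8 of 8 prostate luminal marker genes and for 7 of 7 neuroendocrine marker genes. Of 6 leukocyte marker genes, none had one in both lists. The luminal gene KLK3 had 171 reads at its promoter summit in C4-2B against 45 in C4-2BER, and the neuroendocrine gene NCAM1 had 24 and 36 over its canonical TSS. The neuroendocrine promoters were thus accessible in both lines, and their presence in a list does not separate them.

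Most member promoters carried a match to the ISRE. The ISRE core, written GAAANNGAAA and searched on both strands from 250 bases before to 50 bases after the canonical TSS, was present in 29 of 47 members (61.7%). It was present in 3.31% of the same windows of all protein-coding genes, and in 4.60% when those genes were weighted to the GC content of the member promoters. Followed directly by CT, the core was found in 18 members (38.3%) and in 0.310% of all genes. The genome held 61 such genes, these 18 included. The GAS core TTCNNNGAA was present in 13 members (27.7%) and in 6.41% of all promoters (8.34% after GC weighting), and 36 members held either core (76.6%, against 9.38% of all genes and 12.4% after GC weighting). A match is a description of the letters and not evidence that a factor was bound. The stretches below lie just before the canonical TSS and are shown because they carry the results that follow. ISG15, IFI6 and IFIT1 represent promoters accessible in both lines. IFIT2 had the lowest ratio of C4-2BER to C4-2B reads, IFI27 and LGALS3BP had a TSS peak in 1 list only, and GBP1 and BST2 had the highest ratios. They read 5′ to 3′ on the strand of the gene, with the ISRE core in capitals, and a core on the opposite strand therefore appears as TTTC, any 2 bases, TTTC. For GBP1 and BST2 only 30 bases are shown, since the core lay inside an exon of another transcript.
ISG15 (chr1:1013297-1013496, plus strand): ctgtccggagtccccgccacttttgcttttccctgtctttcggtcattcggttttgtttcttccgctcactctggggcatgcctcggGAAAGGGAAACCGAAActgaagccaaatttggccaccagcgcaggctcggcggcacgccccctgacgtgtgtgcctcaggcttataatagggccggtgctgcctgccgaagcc
IFI6 (chr1:27672213-27672392, minus strand): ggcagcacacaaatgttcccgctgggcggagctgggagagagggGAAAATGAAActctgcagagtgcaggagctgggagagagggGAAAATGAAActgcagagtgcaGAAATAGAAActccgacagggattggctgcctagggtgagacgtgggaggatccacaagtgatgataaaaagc
IFIT1 (chr10:89392423-89392545, plus strand): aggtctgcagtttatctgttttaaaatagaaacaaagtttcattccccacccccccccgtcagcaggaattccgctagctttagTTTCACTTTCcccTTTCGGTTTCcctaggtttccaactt
IFIT2 (chr10:89301846-89301976, plus strand): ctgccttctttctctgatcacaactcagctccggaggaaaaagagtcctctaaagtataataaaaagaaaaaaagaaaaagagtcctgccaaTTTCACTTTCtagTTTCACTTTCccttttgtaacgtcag
IFI27 (chr14:94110615-94110677, plus strand): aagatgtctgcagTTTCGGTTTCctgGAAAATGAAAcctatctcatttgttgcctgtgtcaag
LGALS3BP (chr17:78979948-78980123, minus strand): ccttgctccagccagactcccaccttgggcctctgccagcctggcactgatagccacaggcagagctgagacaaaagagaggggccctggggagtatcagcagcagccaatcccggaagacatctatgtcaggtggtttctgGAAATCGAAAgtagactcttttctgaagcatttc
GBP1 (chr1:89065316-89065345, minus strand): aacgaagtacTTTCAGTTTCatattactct
BST2 (chr19:17405738-17405767, minus strand): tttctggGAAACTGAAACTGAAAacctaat

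In ISG15 and in BST2 the capitals join 2 overlapping cores, and IFI6 carried 3 separate ones. Among the 29 members with a match, 13 had 1 core, 12 had 2 and 4 had 3, which made 49 matches at 48 distinct places. The most frequent form was GAAACTGAAA, which accounted for 14 of them. The centre of the matches lay at a median of 90.5 bases before the TSS, and 44 matches had it within the first 160 bases before the TSS. These positions were then set against the peaks. A peak covered the match in both lists for 42 of the 49, in C4-2B only for 2 (IFI27), in C4-2BER only for 2 (GBP1 and LGALS3BP) and in neither list for 3 (CXCL10 and both matches of IFI44L). Most matches were thus in chromatin called accessible in both lines. How many matches outside the members were covered was not computed. The canonical TSS was under a peak in both lists for 25 of the 29 members with a core. Among the 622 other genes with a core it was so for 311. It was so for 13 of the 18 members without a core and for 64.6% of all protein-coding genes.

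**Figure D1:**
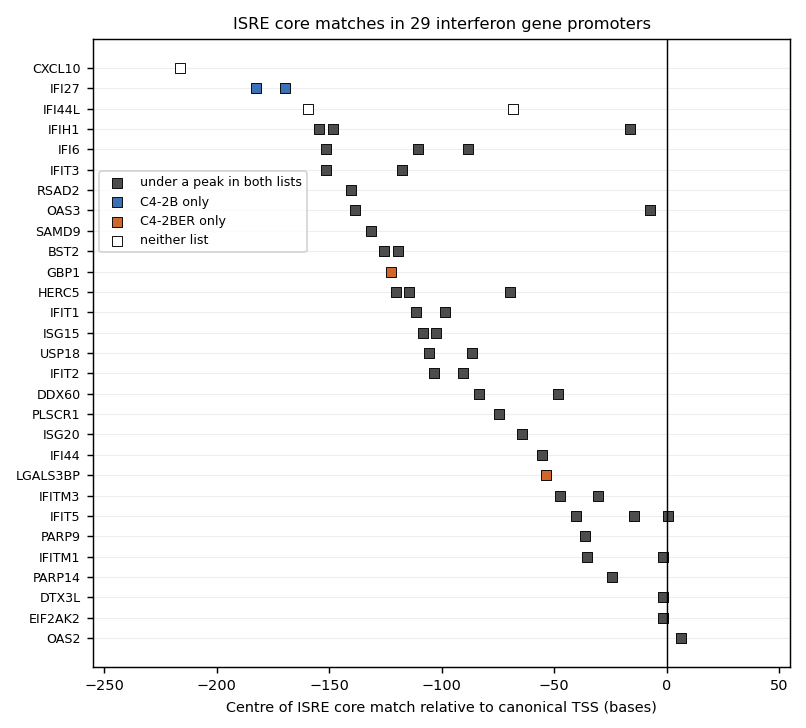
Position of each ISRE core match (squares) relative to the canonical TSS in bases, for the 29 members with at least 1 match, coloured by whether a peak of both lists, 1 list or neither list covered it. Most squares lie in the 160 bases before the TSS and are covered in both lists, and those covered in 1 list belong to IFI27, GBP1 and LGALS3BP.

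The next question was how many member promoters were accessible, and in which line. A promoter peak was present in both lists for 44 of 47 members (93.6%), against 77.7% of all protein-coding genes and 68.0% after GC weighting. No member had a promoter peak in C4-2B only, where the share of all genes was 2.83%, and none in C4-2BER only, where it was 3.39%. A count of 0 of 47 allows a share of up to 6.38%, which is above both of these background shares. The remaining 3 members, TRIM22, CXCL10 and SAMD9L, had a promoter peak in neither list (16.0% of all genes and 24.6% after GC weighting). By this measure no member promoter was called in 1 line alone, which says nothing of how strong the peaks were.

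Because a window around every TSS can hold peaks that are not at the main start, the peak over the canonical TSS itself was also examined, a choice made after the data were seen. Such a peak was present in both lists for 38 members (80.9%), against 64.6% of all genes and 54.7% after GC weighting. It was in C4-2B only for 1 member, IFI27 (1.31% of all genes), and in C4-2BER only for 2 members, LGALS3BP and MX1 (5.51% of all genes). It was in neither list for 6 members (28.6% of all genes), namely IFI44L, IFITM2, MX2 and the 3 without any promoter peak. The 3 members that separated the lines are described with their values below.

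**Figure D2:**
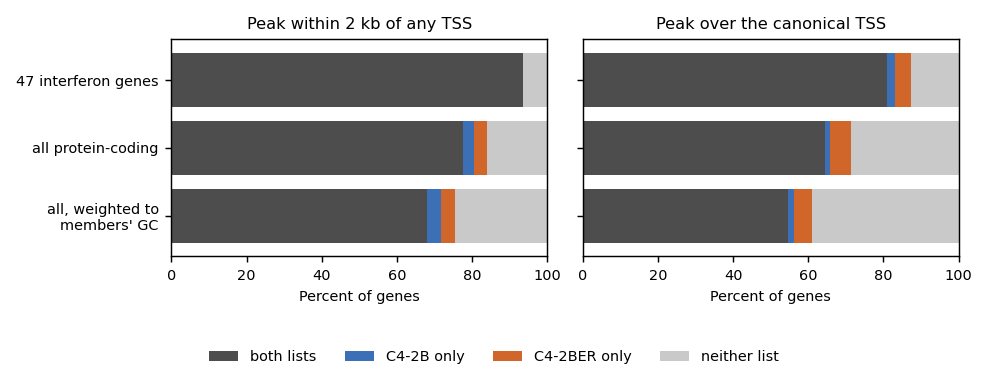
Percent of genes with a peak in both lists, in C4-2B only, in C4-2BER only or in neither list, for the 47 members, for all 19689 protein-coding genes and for the same genes weighted to the GC content of the member promoters. Left, a peak within 2 kb of any TSS (93.6% of members in both lists); right, a peak over the canonical TSS (80.9%).

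The member promoters were open but not among the strongest. Peaks were ranked by −log10 p within their own list and the rank given as a percentile, with 100 for the strongest. The strongest promoter peaks of the 44 members had a median rank percentile of 82.0 in C4-2B against 87.2 in C4-2BER, below the medians of 91.6 and 92.6 over all genes with a promoter peak. In reads, the median member summit held 64 in C4-2B against 66 in C4-2BER, where all genes had 119 and 108. The member promoters were also less GC-rich, with a median of 50.3% within 1000 bp of the TSS against 56.0% for all genes, but weighting to that GC content left the comparison medians at 92.0 and 92.9. Some members shared a peak, since IFITM1 and IFITM2, CMPK2 and RSAD2, and PARP9 and DTX3L each had the same strongest promoter peak, so the 44 members rested on 41 peaks in each list.

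The ranks and reads of the 2 lists were then compared. The rank percentile changed by a median of 2.21 from C4-2B to C4-2BER over the 44 members (31 higher, 13 lower). The median over all genes was 0.588, and the higher and lower counts were not computed over all genes. The members also started from a lower median rank in C4-2B, 82.0 against 91.6, so the 2 medians do not show a change particular to the members. Of the 44 members 35 changed by less than 10 points, as did 84.6% of all genes. The lists differ in length, which moves percentiles, and with equal numbers of top peaks the median change of the members was 5.66. The change over all genes was not computed at that setting, so 5.66 cannot be set against 0.588. The log2 ratio of summit reads, C4-2BER over C4-2B, had a median of 0.16 over the members and 0.14 over all genes, a gap smaller than the counting interval of any 1 member. The sign of that median was set by the scaling, because without depth scaling it was −0.10 for the members and −0.12 for all genes, and relative to all genes it was 0.02. A ratio of at least 2-fold higher in C4-2BER was reached by 2 of 44 members, BST2 and GBP1 (3.06% of all genes), and a ratio of at least 2-fold lower by none (1.39% of all genes). These ratios pair the strongest peak of each list, which lay at different sites for IFI44L, GBP2, BST2 and MX1. With the C4-2BER interval overlapping the strongest C4-2B interval, 1 member was past 2-fold lower. The ratio of the strongest peaks lay within 0.5 on the log2 scale for 37 members and for 86.2% of all genes.

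**Figure D3:**
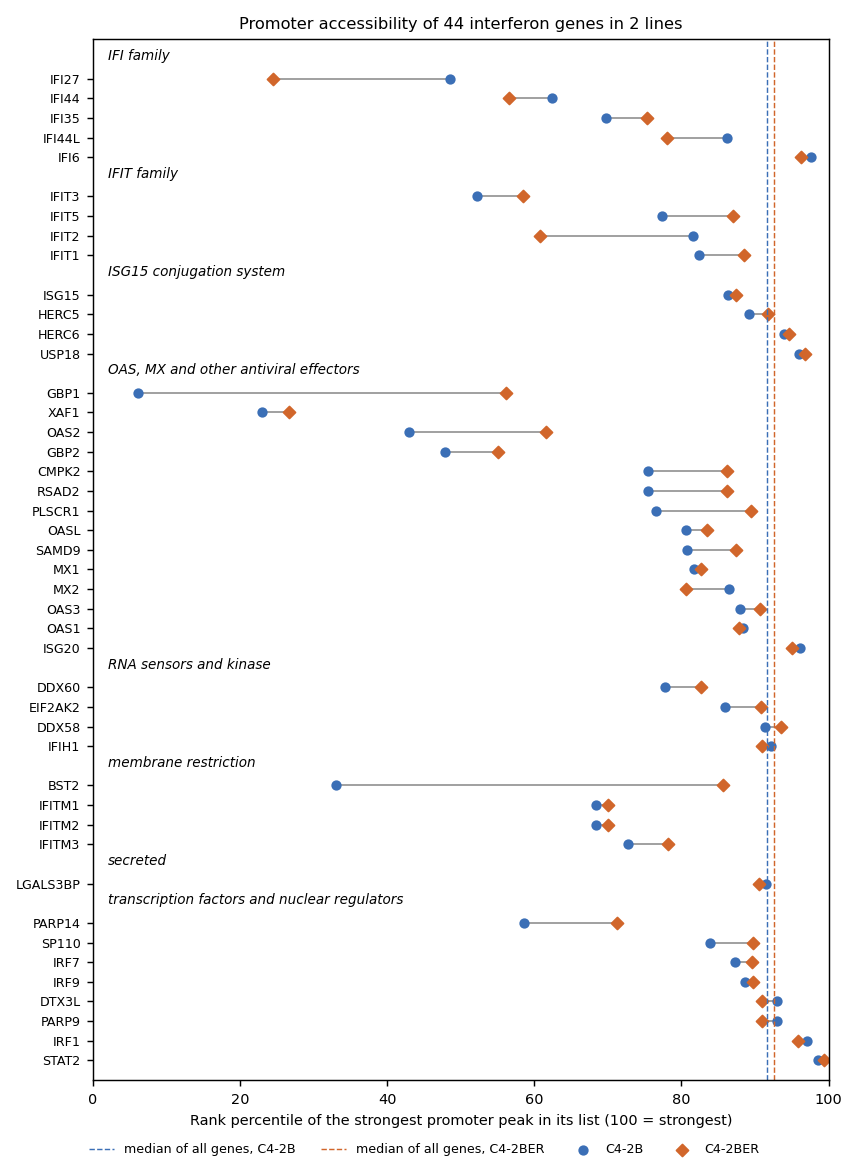
Rank percentile of the strongest promoter peak within its own list, C4-2B (circles) and C4-2BER (diamonds), for the 44 members with a promoter peak in both lists, grouped by role, with dashed lines at the medians of all genes (91.6 and 92.6). Most members sit below those lines and move little, while GBP1 and BST2 lie far to the right in C4-2BER and IFI27 and IFIT2 to the left; the BST2 peaks are at different sites.

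Ratios at the canonical TSS compare intervals that both cover it, and their median over 38 members was 0.17 (0.15 over all genes). The summits of the lists lay within 100 bp of each other for 34 of the 38, and farther apart for IFITM3, XAF1, DDX60 and GBP1. Here too the 2 members past 2-fold higher were GBP1 and BST2 (2.42% of all genes), and none was past 2-fold lower (0.519% of all genes). The counting interval lay above 0 for 3 members, GBP1, BST2 and PLSCR1, and below 0 for 1, IFIT2, and it spanned 0 for 34. Without depth scaling it lay above 0 for 1, BST2, and below 0 for 5. These 5 were IFIT2, IFIH1 (−0.93 to −0.12), ISG20 (−0.70 to −0.02) and PARP9 with DTX3L (−0.82 to −0.02), which share 1 peak. Direction depended on the scale for many of the 38 members. With depth scaling 30 ratios were above 0, without it 10, and 15 when the authors' fold enrichment was compared in place of reads. Neither the interval counts nor these sign counts were computed over all genes. They therefore have no background share, and some intervals can exclude 0 by counting error alone.

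**Figure D4:**
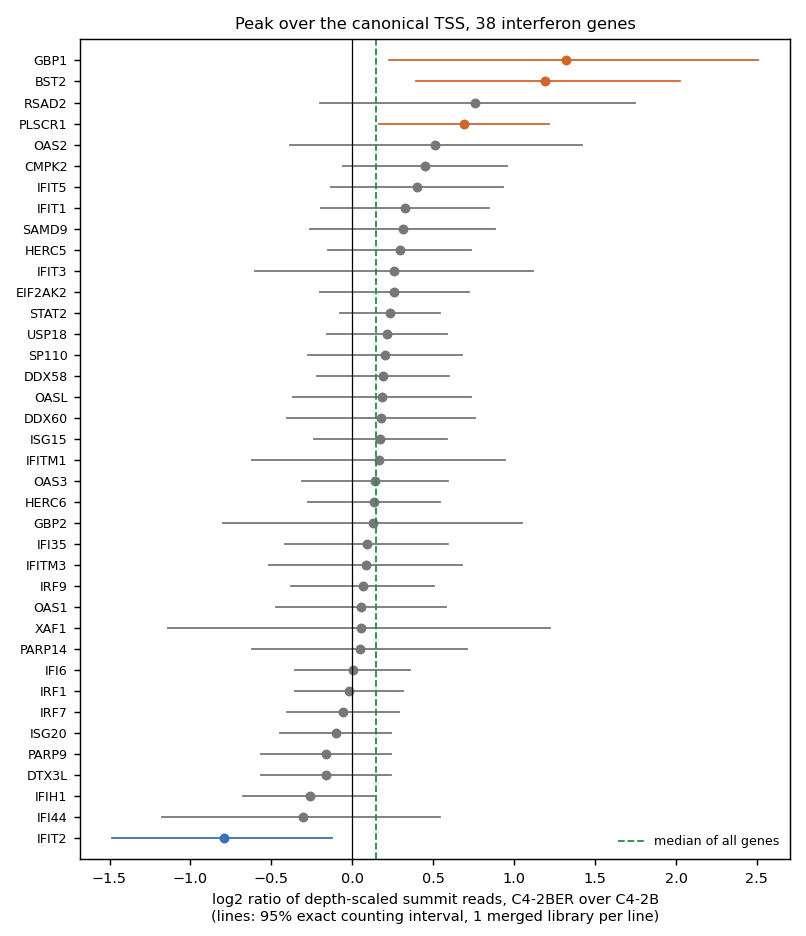
Log2 ratio of depth-scaled summit reads, C4-2BER over C4-2B, of the peak over the canonical TSS in 38 members (points) with 95% exact counting intervals (lines), and the median of all genes (dashed). On this depth-scaled axis GBP1, BST2 and PLSCR1 (orange) lie above 0 and IFIT2 (blue) below 0, and every other interval spans 0. Without depth scaling 1 lies above and 5 below, where PARP9 and DTX3L share 1 peak. Such counts were not computed over all genes.

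GBP1, an interferon-induced guanylate-binding GTPase, lies on the minus strand of chromosome 1 with its canonical TSS at 89065208. The peak over that TSS held 11 reads in C4-2B, with a −log10 q of 3.62 and a rank percentile of 6.08, and 23 reads in C4-2BER, with a −log10 q of 13.6 and a rank percentile of 56.2. The log2 ratio was 1.32 (95% interval 0.23 to 2.51). It thus stood among the weakest peaks of the C4-2B list and in the middle of the C4-2BER list, and its width was 250 bp and 739 bp. The ISRE core shown above, 118 to 127 bases before the TSS, was outside the narrower C4-2B interval and under the C4-2BER one. The ratio was 1.06 without depth scaling, where its interval (−0.03 to 2.25) reached 0, and 0.95 by fold enrichment. A requirement of a −log10 q of at least 5 made GBP1 a C4-2BER-only promoter.

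BST2, the membrane protein tetherin that holds budding virus particles at the cell surface, lies on the minus strand of chromosome 19 with its TSS at 17405630. The peak over the TSS held 21 reads in C4-2B against 40 in C4-2BER (log2 ratio 1.19, 95% interval 0.39 to 2.02), and its rank percentile went from 33.0 to 66.1. Both lists covered its 2 joined ISRE cores. An intronic peak 2202 bases after the TSS had 32 reads in C4-2B against 64 in C4-2BER and was the strongest promoter peak of the gene in C4-2BER, so the ratio of the strongest peaks, 1.87, compares different sites. The local background under the TSS peak was higher as well, at 3.26 reads in C4-2B against 5.70 in C4-2BER, and by fold enrichment the log2 ratio was 0.24. The role of that background in the difference was not tested. The other membrane restriction factors, the IFITM proteins, block viral entry. IFITM3 had 53 reads in C4-2B against 47 in C4-2BER, and the TSS peak of IFITM1 had 31 and 29. The strongest promoter peak of IFITM1 is also that of IFITM2, and it had 50 reads in C4-2B against 40 in C4-2BER.

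IFIT2 showed the opposite direction. The IFIT proteins bind foreign RNA and are among the genes most strongly induced by interferon, and the 4 members lie in a cluster on chromosome 10. The IFIT2 peak over the TSS at 89302046 held 60 reads in C4-2B against 29 in C4-2BER, a log2 ratio of −0.79 (95% interval −1.48 to −0.13), and its rank percentile went from 81.6 to 60.8. The ratio was lower without depth scaling, at −1.05, and was −0.86 by fold enrichment, so its direction held on each scale. Both lists covered its 2 ISRE cores, and the C4-2BER list held a separate weak peak of 19 reads 631 bases before the TSS that was not in the C4-2B list. The neighbouring family members gave other values. IFIT1 had 64 reads in C4-2B against 67 in C4-2BER, IFIT3 had 25 in each, and IFIT5 had 59 and 65, with log2 ratios of 0.32, 0.26 and 0.40 and intervals that spanned 0.

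PLSCR1, phospholipid scramblase, had 55 reads over its TSS in C4-2B against 74 in C4-2BER (log2 ratio 0.69, 95% interval 0.16 to 1.22), with rank percentiles of 76.6 and 89.4. Without depth scaling the ratio was 0.43 with an interval that reached 0 (−0.09 to 0.96), and by fold enrichment it was 0.11. RSAD2, which encodes the antiviral enzyme viperin, had 17 reads over its own TSS in C4-2B against 24 in C4-2BER (0.76, −0.20 to 1.74), and the peak at the divergent CMPK2 start, which lay within reach of an RSAD2 TSS, had 64 and 73 (0.45, −0.06 to 0.96). OAS2 had 21 and 25 reads (0.51, −0.39 to 1.42). These were higher in C4-2BER by reads and rank, but apart from PLSCR1 their depth-scaled intervals spanned 0.

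The oligoadenylate synthetases OAS1 and OAS3, which activate RNase L upon double-stranded RNA, had intervals that spanned 0. OAS1 had 68 reads in C4-2B against 59 in C4-2BER, and OAS3 had 89 and 82. The related OASL had 60 and 57. Of the 16 members of this effector group, 14 had a promoter peak in both lists, with log2 ratios between −0.45 (MX2) and 1.32 (GBP1). ISG20, an exonuclease, was the strongest of them in either list, with 167 reads in C4-2B against 130 in C4-2BER, and SAMD9 had 53 and 55. XAF1 was near the lower limit of both lists, with 15 and 13 reads. GBP2, a second guanylate-binding protein, had 23 reads over its TSS in C4-2B against 21 in C4-2BER, while its strongest promoter peak in C4-2BER, of 29 reads, lay 1681 bases before the TSS, where the C4-2B list had none (log2 ratio of the strongest peaks 0.59, across different sites).

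MX1 and MX2, dynamin-like GTPases that block viral replication, lie next to each other on chromosome 21. At the canonical TSS of MX1 (41426239) a peak of 24 reads, with a −log10 q of 15.1 and a rank percentile of 60.0, was called in C4-2BER and none in C4-2B. Alternative starts of MX1 were accessible in both lines. A shared peak upstream, with its C4-2B summit 5662 bases before the canonical TSS, had 57 reads in C4-2B against 55 in C4-2BER, while the one 7572 bases after that TSS had 56 in C4-2B and the matching C4-2BER peak had 10. At MX2 the promoter peak lay 1664 bases before the TSS and had 82 reads in C4-2B against 50 in C4-2BER (log2 ratio −0.45, 95% interval −0.99 to 0.07). Which MX1 starts were called accessible thus differed between the lists, while both lists held MX1 promoter peaks.

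Among the IFI genes, a mixed group named for induction by interferon, the ratios ran from −0.53 to 0.09. IFI27 had the lowest, since its strongest promoter peak, 1279 bases before the TSS, had 26 reads in C4-2B against 15 in C4-2BER (95% interval −1.56 to 0.44). The TSS itself, at 94110815 on chromosome 14, was covered in C4-2B by a weak peak of 17 reads with a −log10 q of 5.96, and both ISRE cores of the gene lay under it. No C4-2BER peak was called there. The absence of a call is not a count of 0, and the C4-2B peak itself was weak, at a rank percentile of 19.8. IFI6 was the strongest IFI promoter, with 148 reads in C4-2B against 124 in C4-2BER and rank percentiles of 97.6 and 96.3. IFI35 had 73 and 65 reads, and IFI44 had 31 and 21 (log2 ratio −0.30, −1.18 to 0.54).

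IFI44L, the neighbour of IFI44, had no peak over its canonical TSS in either list, and both of its ISRE cores lay outside peaks. At an alternative start 7049 bases downstream, a peak of 58 reads (−log10 q 56.5, rank percentile 86.2) was called in C4-2B and none in C4-2BER. A peak 2681 bases before the canonical TSS was shared, with 44 reads in C4-2B against 35 in C4-2BER. The log2 ratio of the strongest peaks was −0.47, across these different sites. The promoter state of this gene was therefore shared by name but not by site, and it became C4-2B only when the promoter was narrowed to 1000 bp.

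LGALS3BP, a secreted glycoprotein that binds galectins, lies on the minus strand of chromosome 17. A C4-2BER peak of 36 reads, with a −log10 q of 11.1 and a rank percentile of 49.8, covered its canonical TSS at 78979923 and the single ISRE core printed above, and no C4-2B peak was called there. A stronger peak 4438 bases downstream, near an alternative start, was present in both lists with 128 reads in C4-2B against 103 in C4-2BER. CXCL10, the other secreted member and a chemokine for T cells, had no promoter peak. Its locus held 4 peaks in C4-2B against 3 in C4-2BER, and the nearest was 5001 bases upstream, with 12 reads in C4-2B only.

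The 2 other members without a promoter peak had an accessible neighbour. SAMD9L lies beside SAMD9, and its locus held 1 peak in each list, the one at the SAMD9 promoter. TRIM22, an antiviral ubiquitin ligase, had a strong peak at the start of the adjacent TRIM5 gene, 4698 bases before its own TSS, with 121 reads in C4-2B against 93 in C4-2BER and an ISRE core within 100 bp of the summit. Neither gene lacked accessible DNA within 20 kb, but in neither line was a peak called at its own start.

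The transcription factors and nuclear regulators had peaks at all 8 promoters and over all 8 canonical TSSs in both lists. Log2 ratios of the strongest promoter peaks lay between −0.16 and 0.26, and those over the TSSs between −0.16 and 0.23. STAT2, the partner of IRF9 in ISGF3, had the highest promoter rank of any member in either list, with 177 reads in C4-2B against 174 in C4-2BER and rank percentiles of 98.6 and 99.4. IRF9 had 95 and 83 reads, IRF7, the main inducer of interferon alpha genes, had 158 and 127, and IRF1, an activator downstream of interferon gamma, had 171 and 141. The peak shared by PARP9 and DTX3L, which form a ubiquitin ligase complex, had 123 reads in C4-2B against 92 in C4-2BER, and SP110 had 78 and 75. The strongest promoter peak of PARP14, 1538 bases before the TSS in C4-2B, had 44 in each list. Over its TSS PARP14 had 44 in C4-2B against 38 in C4-2BER. Only 3 of these 8 promoters held an ISRE core, whereas 4 of 4 IFIT and 4 of 5 IFI promoters did.

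The ISG15 conjugation system attaches the ubiquitin-like protein ISG15 to targets, with HERC5 as its ligase and USP18 as the protease that removes it. ISG15 had 105 reads in C4-2B against 99 in C4-2BER, HERC5 had 87 and 89, HERC6 had 108 and 99, and USP18 had 126 and 122. The 4 log2 ratios lay between 0.13 and 0.29, and all intervals spanned 0. The sensors of viral RNA had promoter peaks in both lists as well, with depth-scaled intervals that spanned 0. DDX58 (RIG-I) had 107 reads in C4-2B against 102 in C4-2BER, IFIH1 (MDA5) had 125 and 87, the cofactor DDX60 had 54 and 51, and the kinase EIF2AK2 (PKR) had 82 in each. Of these, IFIH1 had the lowest ratio (−0.26, 95% interval −0.68 to 0.14), and without depth scaling its interval lay below 0.

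Peaks found in 1 list only were then sought in the wider loci. All 47 members had at least 1 peak within 20 kb in both lists, as did 95.3% of all protein-coding genes. The loci together held 236 distinct peaks in C4-2B against 206 in C4-2BER. Of these, 68 were in C4-2B only (28.8%, 95% Wilson interval 23.4 to 34.9) and 37 in C4-2BER only (18.0%, 13.3 to 23.8). The C4-2B list is the longer one, and with equal numbers of top peaks the order turned, with 37 in C4-2B only and 46 in C4-2BER only. Over the loci of all protein-coding genes the line-only shares were 35.3% and 19.2%, so the member share of 28.8% was below the first and that of 18.0% near the second. The Wilson intervals treat each peak as independent, while the peaks lie in 47 loci, some of them overlapping. They are therefore no test against these shares. No share over all genes was computed with equal numbers of top peaks. Line-only peaks were weak, with median summits of 18 (C4-2B) and 19 reads (C4-2BER), where the shared peaks of the member loci had 50 and 36. A −log10 q of 10 or more was found for 21 of the 68 (30.9%, against 37.5% of all C4-2B-only peaks) and for 10 of the 37 (27.0%, against 18.9% of all C4-2BER-only peaks). By summit, 25 of the C4-2B-only peaks were in introns, 17 in promoters of any gene, 16 between genes and 10 in exons, and the C4-2BER-only peaks were in promoters (14), between genes (12), in introns (7) and in exons (4).

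**Figure D5:**
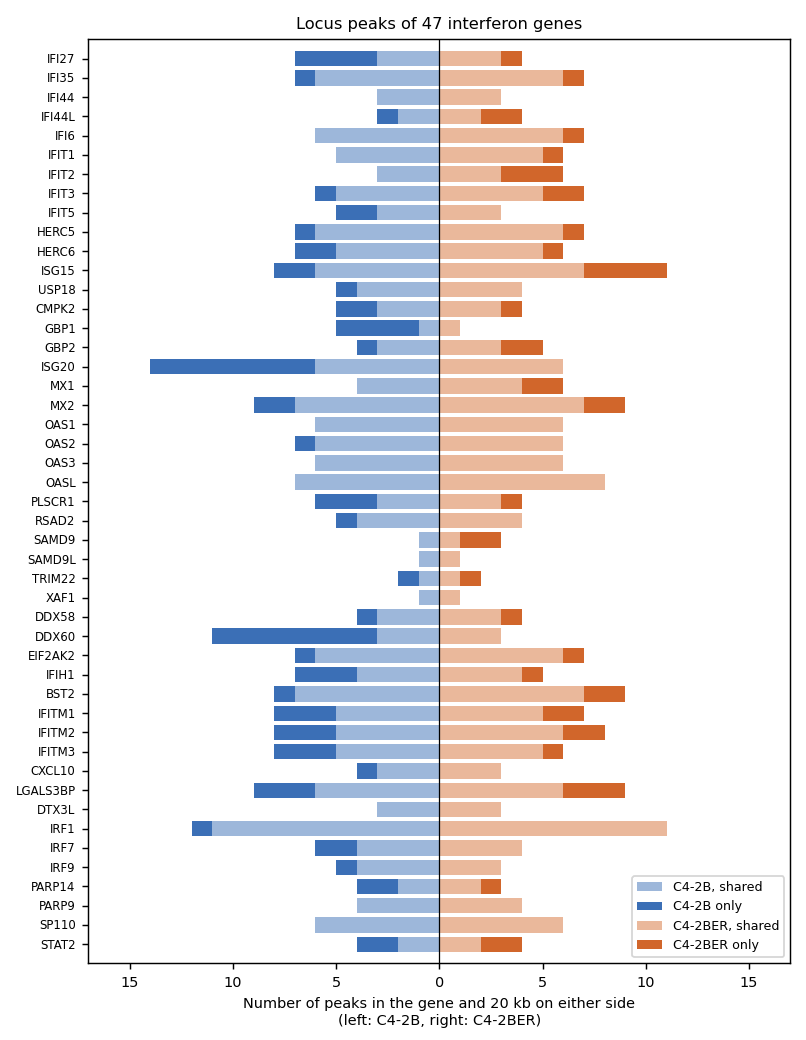
Number of peaks in each member gene and 20 kb on either side, C4-2B to the left and C4-2BER to the right, with shared peaks pale and line-only peaks dark; members are ordered by role. The longest dark bars are the 8 C4-2B-only peaks at ISG20 and at DDX60, and at C4-2BER the 4 at ISG15.

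Some loci held several line-only peaks. DDX60, a long gene on chromosome 4, had 11 peaks in C4-2B against 3 in C4-2BER, with 8 in C4-2B only. The strongest lay in introns at 168274603 to 168275236 (87 reads, −log10 q 80.1, rank percentile 93.1) and at 168256025 to 168257050 (68 reads, −log10 q 60.9). Both exceeded the 54 reads of the DDX60 promoter peak in that list, whose own ratio had an interval that spanned 0. ISG20 had 14 peaks in C4-2B against 6 in C4-2BER, with 8 in C4-2B only. GBP1, whose promoter was higher in C4-2BER, had 5 locus peaks in C4-2B against 1 in C4-2BER, and among its 4 C4-2B-only peaks was one of 39 reads 9319 bases into the gene. In the other direction, ISG15 had 11 locus peaks in C4-2BER, 4 of them in that list only, with the strongest 7009 bases before the canonical TSS (90 reads, −log10 q 31.9, rank percentile 80.2).

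The ISRE core was counted under the locus peaks as well. It lay within 100 bp of the summit in 20 of 236 C4-2B peaks of the member loci (8.47%, 95% Wilson interval 5.55 to 12.7) and in 22 of 206 C4-2BER peaks (10.7%, 7.16 to 15.6), against 1.98% and 2.11% of all peaks in the lists. The shared peaks of the loci carried it in 11.3% and 11.2%. Among the line-only peaks it was in 1 of 68 in C4-2B (1.47%, 0.260 to 7.87) and in 3 of 37 in C4-2BER (8.11%, 2.80 to 21.3). The intervals of these line-only shares overlapped, and the 3 C4-2BER-only peaks were those over the LGALS3BP TSS (36 reads), 14659 bases before the MX1 TSS (16 reads) and 12505 bases before the IFI44L TSS (7 reads).

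Members with an ISRE core and those without were then compared. The median log2 ratio of promoter reads was 0.18 over the 28 members with a core and a promoter peak in both lists, and 0.11 over the 16 such members without a core. Outside the signature, 622 protein-coding genes had the core in the same window. Of these, 411 had a promoter peak in both lists, 22 in C4-2B only and 20 in C4-2BER only, and their median log2 ratio was 0.16. The share with a promoter peak in both lists was 66.1% of those 622 genes and 96.6% of the 29 members with the core. It was 88.9% of the 18 members without the core and 77.7% of all protein-coding genes. The high share was thus found in members with and without the core, and not in other genes that carry it.

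The rest of the pathway was scored in the same way over 35 genes: receptors and kinases, factors that induce interferon, inhibitors, and ligands. A promoter peak was in both lists for 27, in C4-2B only for IFNK, in C4-2BER only for IFNLR1 and in neither for 6. Over all protein-coding genes the shares, in that order, were 77.7%, 2.83%, 3.39% and 16.0%. None of the pathway ratios passed 2-fold in either direction. Among all genes, 3.06% were at least 2-fold higher in C4-2BER and 1.39% at least 2-fold lower. The pathway counts were not tested against these shares. All 6 inhibitors, among them SOCS1 and SOCS3, had a peak at the promoter in each list. Of the 9 ligand genes, 5 had it in neither list, including IFNB1, IFNA1, IFNA2 and IFNG, and no ligand had a peak over its canonical TSS. IFNLR1, the specific receptor chain for type III interferon, had a C4-2BER peak of 43 reads. IFNAR2, a chain of the type I receptor, had 72 reads in C4-2B against 94 in C4-2BER (log2 ratio 0.64, 95% interval 0.19 to 1.11). Without depth scaling the interval reached 0 (−0.07 to 0.85), and by fold enrichment the ratio was −0.18. Its partner IFNAR1 had 138 and 142. STING1, the adaptor of cytosolic DNA sensing, had 50 reads in C4-2B against 23 in C4-2BER at its strongest promoter peaks (−0.86, −1.64 to −0.12). Without depth scaling its ratio was −1.12 (−1.90 to −0.38), past 2-fold lower, and by fold enrichment it was −0.91. CGAS, the sensor upstream of STING1, had no promoter peak in either list.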

How the data were processed

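ATAC-seq of 2 C4-2B and 2 C4-2BER libraries was used as the deposited peak lists, 1 per line. According to the methods of the study, trimmed reads were mapped to hg38 by Bowtie2, low-quality alignments and Picard duplicates were dropped, replicates were merged, and macs2 called peaks on reads extended to 200 bp (version not given in the sources used here; a shift was given without a minus sign). If that shift was run as a positive value, summits and intervals would be displaced, which bears on the distances to TSSs and on which motif matches lie under peaks. The deposited fold enrichment is a ratio of summit reads to local background, computed by the authors with macs2. For each summit the deposited −log10 p comes with a −log10 q, adjusted by the authors' caller within 1 list. A deposited column of another kind gives the summit offset in bp. All values belong to merged libraries.

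Rows that shared an interval were counted once, with the summit of highest −log10 p. Summit reads were recovered as the whole number that solved the fold and the Poisson p-value together (100% of summits, largest error 0.000259 in −log10 p, tolerance 0.001). The recovery was tested on 5000 simulated summits per list, made with the same formula that the recovery solves. That run checks the solving step only, and cannot show that the deposited values follow the formula. The background floors, 2.24 and 1.87 reads per 200 bp, gave the depth ratio of 1.20, and 30.2 M and 25.2 M reads if macs2 used its human genome size. GENCODE 44 supplied genes and TSSs, and sequences were read from hg38 with pysam 0.24.0. Peaks were shared when they overlapped by at least 1 bp. GC weighting averaged all protein-coding genes over the 10 GC deciles in the proportions of the members. Ratios carry exact conditional (Clopper-Pearson) intervals and shares Wilson intervals, both 95% and for counting error only. Weak sites below 8 (C4-2B) or 7 reads (C4-2BER) are not in the lists.

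No test between lines was possible, since each list is 1 merged sample. The members, role groups, pathway and marker lists were chosen with earlier results of these data known. All 47 members could be named. Full values are given for members with a promoter peak in 1 list or in neither, for the 6 largest rises and falls in promoter reads, for the strongest promoter peak, and for the extremes of role groups. Line-only locus peaks and members with a TSS peak in 1 list were named after their values were seen. Some genes of the pathway and marker lists are not reported here. Alternatives were stricter or equal-sized lists, other windows and TSS choices, other rankings and scalings, and other motif rules.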

Additional observations from a re-analysis of the deposited data

How the results depend on the processing

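Of 101 alternative values over 17 results and 21 settings, 67 stayed within 1.5 times the reported count, or within the interval of the reported median or share. No paired analysis was possible because each line had only 1 merged list, and for the same reason no replicate could be left out. The median log2 ratio of promoter reads changed sign without depth scaling (−0.10) and by fold enrichment (−0.023), and was 0.020 with the median of all genes set to 0. Fold enrichment left 0 members past 2-fold higher. The count past 2-fold lower became 1 without depth scaling and when the C4-2BER interval overlapping the strongest C4-2B interval was used. The median rank change was 5.66 with equal numbers of top peaks, since the weaker part of the longer list was removed. No value over all genes was computed at that setting. Line-only promoters appeared under stricter lists: C4-2BER only was 1 (GBP1) at a −log10 q of 5 and with equal numbers, 2 (GBP1, BST2) at a −log10 q of 10, where C4-2B only was 1 (IFI27), and 4 among the top 50000, where neither list was 8. Windows of 1000 and 500 bp gave 2 in C4-2B only (IFI44L, IFI27) and 1 in C4-2BER only (LGALS3BP). The canonical TSS alone gave 2 in C4-2BER only (LGALS3BP, MX1), and a peak over it, a setting added after the data were seen, gave 1, 2 and 6 for C4-2B only, C4-2BER only and neither. For loci, C4-2B only was 1 and neither 1 at a −log10 q of 10, and 1 and 2 with no flank. C4-2B-only locus peaks were 37 with equal numbers, below the 46 in C4-2BER only at that setting, 32 with no flank and 107 with 50000 bp. C4-2BER-only locus peaks were 22 at a −log10 q of 10, 17 with no flank and 69 with 50000 bp. The ISRE core followed by CT gave 18 members, and a window of 250 bp gave shares of 18.6% in C4-2B and 20.9% in C4-2BER. Depth limits weak sites most: 11 against 23 reads at GBP1 leaves a wide interval, and an absent call does not show closed chromatin.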
